A study of Pyrus hybrid rootstock with 24 samples.

Results

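Peroxidase (POD) genes that the study placed at the last step of lignin biosynthesis were followed through graft healing in pear. The study labelled 5 POD genes among its differentially expressed genes (DEGs), and 3 of them, Pbr000691.1, Pbr030045.1, and Pbr013214.1, reached 1 FPKM (fragments scaled by gene length and library size) in at least 3 of the 24 libraries. By the same threshold, 26895 of the 42812 listed genes were kept. The samples were graft unions of plantlets grown in tissue culture and joined by micro-grafting. In homografts, both scion and rootstock were "Qingzhen D1" (Pyrus communis × Pyrus bretschneideri). In heterografts, a scion of "QAUP-1" (Pyrus ussuriensis) was joined to a rootstock of "Qingzhen D1", in the order given by the sample titles and the methods. The design text that came with the series reverses scion and rootstock for this graft. Unions were collected at 1, 5, 9, and 30 days after grafting (DAG), which the study named separation (SS), callus formation (CF), cambium differentiation (CD), and vascular connection (VC). The 4 stages were SSS, SCF, SCD, and SVC in homografts and DSS, DCF, DCD, and DVC in heterografts, with 3 libraries for each of these 8 conditions. The methods call the 3 libraries of a condition biological replicates.

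As background, plant peroxidases of class III are secreted, heme-containing enzymes encoded by a large gene family. In the cell wall they use hydrogen peroxide to oxidise monolignols, the alcohol precursors of lignin, to radicals that couple with one another and with the growing polymer, a step that laccases can also carry out. Lignin stiffens and waterproofs the walls of xylem vessels and fibres, and new xylem must be formed across a graft union before it conducts water. Many members of the family act in other processes, such as defence, wound healing of the wall, and the turnover of hydrogen peroxide, so the name POD does not by itself place a gene in lignin formation. No annotation of these identifiers was used here, and the name POD rests on the study alone.

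The 3 genes were chosen by measured values: the study drew them from its DEGs, whose log2 fold change exceeds 1 in size, and the FPKM threshold was then applied. The study does not state which comparison made each gene a DEG. Heterograft against homograft was taken as that comparison, and these differences, and their changes with stage, are given as a description with no test. Changes with stage averaged over both graft types were tested for Pbr000691.1 and Pbr030045.1. They are another contrast of the same libraries, but a low or high level in a given condition moves both contrasts. For Pbr000691.1 the log2 step of 1.45 from SS to CF averages 0.35 in homografts and 2.55 in heterografts, where DSS was low. For Pbr030045.1 the step of 1.53 from CF to CD averages 1.25 and 1.81. The p-values of these steps are therefore not free of the choice. If comparisons between stages also entered the choice, the p-values of the stage steps below test values that chose the genes, and they are then no independent evidence. Pbr013214.1 passed the threshold through 3 CD and 3 VC libraries and no SS or CF library, so that its change with stage was part of the choice and was not tested either. Just inside the threshold, Pbr013214.1 had 6 libraries at 1 FPKM or more and its highest value was 2.39 FPKM. Just outside it, Pbr022808.1 had 2 such libraries, with a highest value of 1.24 FPKM and 53 reads over the 24 libraries, and Pbr000438.1 had 1, with a highest value of 1.24 FPKM and 102 reads.

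The FPKM values could be turned back into whole reads, within a tolerance of 0.001 reads, for each of the 32966 genes with a value above 0 in 4 or more libraries. A homograft library held between 11002192 and 13629999 reads on genes, with a median of 11879708. A heterograft library held between 10373751 and 13371958, with a median of 11724765.5. No 2 libraries were identical. By the study's mapping statistics, SVC replicate 1 had the lowest shares of mapped and of uniquely mapped reads among the 24 libraries. RNA of scion and rootstock was not separated, and a lower level can come from fewer cells of a type or from less RNA per cell, which cannot be told apart. All reads were aligned to the Pyrus bretschneideri genome. The heterografts hold a second genotype, in the scion by the titles, so that graft type, genotype, and the fit of its reads to this genome cannot be told apart.

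The members differed widely in level. Because FPKM is set per gene length, the genes can be compared with each other on this scale. Pbr000691.1 was between 11.3 and 113 FPKM and gave 19255 reads over the 24 libraries. Pbr030045.1 was between 0.267 and 19.97 FPKM and gave 1910 reads. Pbr013214.1 was between 0 and 2.39 FPKM and gave 192 reads. The recovered lengths, 1053 bp for Pbr000691.1, 1017 bp for Pbr030045.1, and 1026 bp for Pbr013214.1, are whole multiples of 3 and are coding lengths. They differed little, so the order of the genes was the same in reads.

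**Figure D1:**
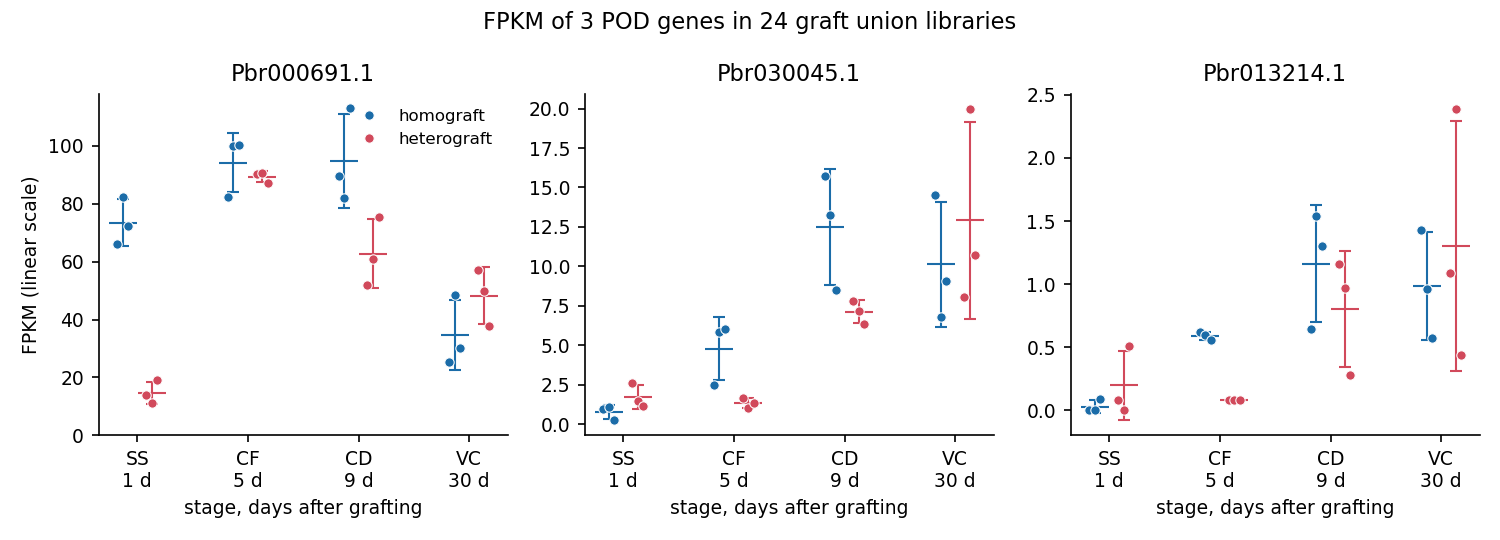
FPKM of Pbr000691.1, Pbr030045.1, and Pbr013214.1 on linear axes of different range (y) against stage and days after grafting (x), with homografts in blue and heterografts in red. Points are libraries, and the cross and bars are the mean and SD of 3. Pbr000691.1 is lowest in DSS at 14.7 FPKM, whereas the other genes have their 4 highest means at CD and VC in both graft types.

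Pbr000691.1 was the abundant member. It was high from the first day in homografts and low on that day in heterografts, high in both at CF, and lower again at VC. In SSS, replicates 1, 2, and 3 had 66.1, 82.2, and 72.3 FPKM, whereas DSS had 13.8, 11.3, and 19.0 FPKM. Every DSS library was thus below every SSS library, and the mean was 73.5 ± 8.12 FPKM (SD, n = 3) in SSS and 14.7 ± 3.89 FPKM (SD, n = 3) in DSS. At CF the values were 82.4, 99.9, and 100.4 FPKM in SCF and 90.3, 90.5, and 87.2 FPKM in DCF. The libraries of the graft types overlapped at this stage, with means of 94.3 ± 10.2 and 89.4 ± 1.84 FPKM (SD, n = 3). At CD, SCD had 89.7, 81.9, and 113 FPKM and DCD had 51.9, 61.0, and 75.4 FPKM. Every DCD library was below every SCD library, with means of 94.9 ± 16.2 FPKM in SCD and 62.8 ± 11.9 FPKM in DCD (SD, n = 3). At VC, SVC had 25.2, 48.5, and 30.3 FPKM and DVC had 57.2, 49.9, and 37.7 FPKM. These overlapped, and the means were 34.7 ± 12.2 and 48.3 ± 9.84 FPKM (SD, n = 3).

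In order of mean level, Pbr000691.1 ran from SCD through SCF, DCF, SSS, DCD, DVC, and SVC to DSS. Neighbours in this order overlapped in 5 of 7 cases. The libraries parted between DCF and SSS and between SVC and DSS. Its rank among the 26895 genes moved accordingly. In DCF its mean was above that of 92.5% of these genes, close to the 92.9% in SCF, and in DSS it was above 59.4%, against 90.8% in SSS.

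Averaged over both graft types, Pbr000691.1 rose from SS to CF and fell from CD to VC. The SS to CF difference was 1.45 ± 0.15 on the log2(FPKM + 1) scale (SE), with an adjusted p of 5.78e-07 in limma, Benjamini-Hochberg adjusted over 26895 genes. An exact permutation of the stage labels within graft types, two-sided, gave p = 0.005, the smallest that its 400 arrangements allow. At this step 19.5% of all tested genes were called higher and 12.4% lower at an adjusted p below 0.05, and the median of all genes was 0.06. From CD to VC, the difference was -0.92 ± 0.15 (SE, adjusted p = 7.53e-05 in limma, p = 0.01 in the exact permutation test), and 17.1% of genes were called lower and 21.5% higher. The CF to CD difference of -0.26 had an adjusted p of 0.434 in limma and an exact permutation p of 0.1, with a 95% interval of the difference from -0.57 to 0.05. Over the 4 stages the limma F was 45.2 (adjusted p = 1.25e-07), a test that 63.4% of genes passed. Permutation p-values were computed for 8 comparisons in all, 4 for each of the 2 tested genes, and are not adjusted.

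The averages covered unlike courses in the 2 graft types. From SS to CF, the mean of Pbr000691.1 was 1.28-fold higher in homografts and 6.07-fold higher in heterografts, and in both every CF library was above every SS library. From CD to VC it was 2.74-fold lower in homografts, with no overlap, and 1.30-fold lower in heterografts, where the libraries overlapped. From CF to CD the homograft means were nearly equal (94.3 and 94.9 FPKM), and every DCD library was below every DCF library. Over the whole period, every SVC library was below every SSS library (log2 change -1.11), and every DVC library was above every DSS library (log2 change 1.66). The share of all genes whose libraries part between stages within a graft type was not computed, so nothing is read from these separations. The averaged SS to VC difference of 0.27 was not called in limma (adjusted p = 0.125, 95% interval -0.04 to 0.58) or in the exact permutation test (p = 0.59). It was called without SVC replicate 1 (0.37, adjusted p = 0.0403 in limma) and without DSS replicate 3 (0.37, adjusted p = 0.0431 in limma). For this contrast 37% of genes were called higher and 18.3% lower, and the median of all tested genes was itself 0.15, a value within the interval of Pbr000691.1.

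On the log2(FPKM + 1) scale, the heterograft minus homograft difference of Pbr000691.1 was -2.27 at SS and -0.07 at CF, then -0.59 at CD and 0.50 at VC (SE 0.21). In FPKM, the SS mean was 5.00-fold lower in heterografts, and in reads the ratio of homograft to heterograft was 5.01 (95% exact interval 4.57 to 5.51, counting error only). The rule of the DEGs, applied here to the limma fit with an unadjusted p below 0.05, called the gene at SS, as it did 4.48% of all genes, and at no other stage. At SS the libraries of the graft types did not overlap in 30.7% of all genes, and at CD in 9.83%. At VC the difference was 0.76 without SVC replicate 2, the SVC library with the highest value, and 0.30 without SVC replicate 1.

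**Figure D2:**
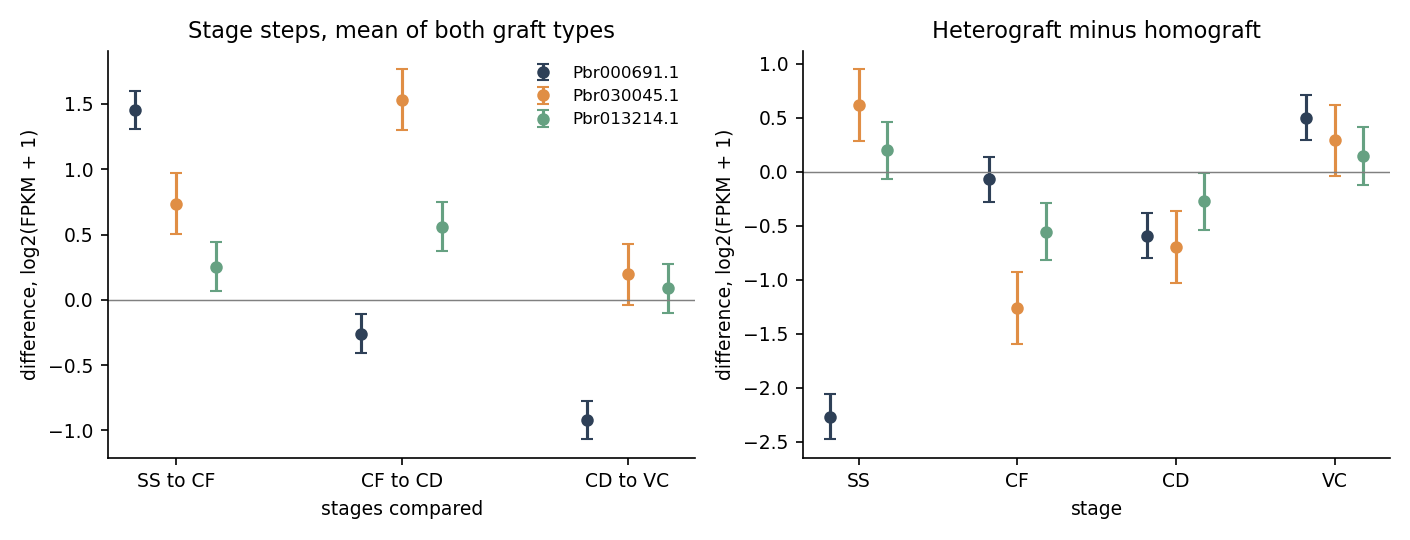
Differences on the log2(FPKM + 1) scale (y) for the 3 POD genes, for stage steps averaged over graft types (left, x gives the stages compared) and for heterograft minus homograft (right, x gives the stage). Points are limma estimates and bars 1 SE. Pbr000691.1 stands at 1.45 from SS to CF and Pbr030045.1 at 1.53 from CF to CD, and the lowest point on the right is Pbr000691.1 at SS, -2.27.

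Pbr030045.1 was low at the start and higher in the later stages in both graft types, with its highest fold between consecutive stages from SS to CF in homografts and from CF to CD in heterografts. In SSS, replicates 1, 2, and 3 had 0.951, 1.08, and 0.267 FPKM (11, 13, and 3 reads), and DSS had 2.59, 1.44, and 1.12 FPKM (30, 17, and 13 reads). The DSS libraries were all above the SSS libraries, although the lowest DSS and the highest SSS value lay close together. The means were 0.766 ± 0.437 FPKM in SSS and 1.72 ± 0.773 FPKM in DSS (SD, n = 3). At CF, SCF had 2.50, 5.84, and 6.02 FPKM and DCF had 1.64, 0.999, and 1.30 FPKM. The order of the graft types was the opposite of that at SS, with every DCF library below every SCF library and means of 1.31 ± 0.320 against 4.79 ± 1.98 FPKM (SD, n = 3). At CD, SCD had 15.7, 13.3, and 8.47 FPKM and DCD had 7.80, 7.17, and 6.35 FPKM. All DCD libraries were below all SCD libraries, and the means were 12.5 ± 3.69 FPKM in SCD and 7.11 ± 0.729 FPKM in DCD (SD, n = 3). At VC, SVC had 14.5, 6.81, and 9.08 FPKM and DVC had 8.03, 19.97, and 10.7 FPKM. The graft types overlapped at VC, and DVC replicate 2 was the highest of the 24 libraries. The means were 10.1 ± 3.95 FPKM in SVC and 12.9 ± 6.26 FPKM in DVC (SD, n = 3).

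By mean level, Pbr030045.1 ran from DVC through SCD, SVC, DCD, SCF, DSS, and DCF to SSS. Only DCD and SCF, of the 7 pairs of neighbours, did not overlap. The 12 libraries of CD and VC all stood above the 12 of SS and CF, by a narrow gap. The nearest were DCD replicate 3 with 6.35 FPKM and SCF replicate 3 with 6.02 FPKM. The share of all genes that part in this way was not computed, so nothing is read from it. The mean was above that of 8.46% of the tested genes in SSS and of 53.9% in SCD. In heterografts it was above that of 13.04% in DCF and of 53.6% in DVC.

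Averaged over graft types, the change of Pbr030045.1 with stage was called at both of the first 2 steps. From CF to CD it rose by 1.53 ± 0.23 on the log2(FPKM + 1) scale (SE, adjusted p = 0.00640 in limma, exact permutation p = 0.005). Few genes were called at this step, 0.331% higher and 0.294% lower, and the median of all tested genes was 0.04. The number of calls moved with single libraries, between 23 and 901 higher and between 11 and 291 lower as each library was left out, and both highest counts came without DCD replicate 1. Pbr030045.1 was among the higher genes in every one of these fits, with an adjusted p of at most 0.0288. From SS to CF the difference was 0.74 ± 0.23 (SE, adjusted p = 0.0205 in limma), whereas the exact permutation test gave p = 0.095. This call was lost without SSS replicate 3, SCF replicate 2, SCF replicate 3, or DSS replicate 3 (0.63 to 0.66, adjusted p from 0.0532 to 0.0596 in limma), and with voom on the recovered reads (1.18, adjusted p = 0.118). Calls were common at the SS to CF step, with 19.5% of all tested genes higher and 12.4% lower. From CD to VC the difference was 0.20, with a 95% interval from -0.29 to 0.69 (adjusted p = 0.537 in limma, exact permutation p = 0.545). Over the whole period from SS to VC Pbr030045.1 rose by 2.47 ± 0.23 (SE, adjusted p = 3.52e-08 in limma, exact permutation p = 0.005), against the median of 0.15 over all genes. For this contrast 37% of genes were called higher and 18.3% lower. The F over the 4 stages was 52.3 (adjusted p = 4.77e-08 in limma), a test that 63.4% of genes passed.

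Within homografts, the mean of Pbr030045.1 was 6.25-fold higher at CF than at SS, with every library higher, and 2.61-fold higher at CD than at CF, again with every library higher. Within heterografts it was 1.31-fold lower at CF than at SS, where the libraries overlapped, and 5.41-fold higher at CD than at CF in every library. The step from CD to VC was 1.82-fold higher in heterografts, in every library, and 1.23-fold lower in homografts, where the libraries overlapped. From SS to VC both graft types were higher in every library, 13.2-fold in homografts and 7.53-fold in heterografts. How many of all genes part between stages in this way was not computed. These within-graft values rest on 27 reads in SSS and 60 in DSS. In reads, the SS to CF ratio was 6.25 (95% exact interval 4.15 to 9.76) in homografts and 0.768 (0.514 to 1.14) in heterografts. Such intervals hold counting error alone, without the variation from graft to graft.

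The heterograft minus homograft difference of Pbr030045.1 was 0.62 at SS and -1.26 at CF, and -0.70 at CD and 0.29 at VC, on the log2(FPKM + 1) scale (SE 0.33). The mean was 2.24-fold higher in heterografts at SS, 3.65-fold lower at CF, and 1.76-fold lower at CD. By the DEG rule in the limma fit it was called at CF, where 1.51% of all genes were called, and at no other stage. This depends on the scale. At SS the difference was 1.16 with a pseudocount of 0.1 and 1.22 with voom on the recovered reads, both above the rule's limit of 1. Whether the gene was called at SS in those fits is not given. Groups of libraries did not overlap at CF in 22.2% of all genes. Leaving out SSS replicate 3 gave 0.39 at SS, and leaving out DSS replicate 1 gave 0.40. The VC difference was -0.05 without DVC replicate 2, 0.06 without SVC replicate 2, 0.55 without DVC replicate 1, and 0.56 without SVC replicate 1.

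Pbr013214.1 was close to the limit of detection in the early stages. In SSS its 3 libraries had 0, 0, and 1 reads, which is 0.0294 ± 0.0509 FPKM (SD, n = 3), and a library with 0 reads allows up to 3. In DSS they had 1, 0, and 6 reads (0.199 ± 0.274 FPKM), and the libraries overlapped with those of SSS. In SCF each library had 7 reads (0.591 ± 0.0320 FPKM), and in DCF each had 1 read (0.0815 ± 0.000922 FPKM). Every DCF library was thus below every SCF library, with 21 against 3 reads in all and a ratio of 7.24 (95% exact interval 2.16 to 37.9). This interval holds counting error alone, without the variation from graft to graft, and is no test. At CD the values were 0.644, 1.54, and 1.30 FPKM in SCD (9, 21, and 16 reads) and 1.16, 0.966, and 0.282 FPKM in DCD (15, 11, and 3 reads). At VC they were 1.43, 0.964, and 0.573 FPKM in SVC (17, 12, and 7 reads) and 1.09, 2.39, and 0.437 FPKM in DVC (12, 31, and 6 reads). The graft types overlapped at both of these stages. DVC replicate 2 was the highest library, as it was for Pbr030045.1.

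In order of mean level, Pbr013214.1 ran from DVC through SCD, SVC, DCD, SCF, DSS, and DCF to SSS, the same order of conditions as Pbr030045.1. Neighbours overlapped in 6 of 7 cases and parted between SCF and DSS. Within homografts the sum was 1 read at SS and 21 at CF, a ratio of 20.7 (95% exact interval 3.33 to 857), then 46 at CD and 36 at VC. Within heterografts it was 7 at SS and 3 at CF, then 29 and 49 at the later stages, and the ratio of CD to CF was 10.2 (3.16 to 52.2). These intervals hold counting error alone. The change with stage was part of the choice of this gene, so they are no test of it. On the log2(FPKM + 1) scale, which compresses values this low, the averaged differences were 0.25 from SS to CF, 0.56 from CF to CD, and 0.09 from CD to VC (SE 0.19). The last of these lay between -0.07, without DVC replicate 2, and 0.24, without DVC replicate 3, and was also below 0 without DCD replicate 3 or SCD replicate 1. The heterograft minus homograft differences were 0.20 at SS and -0.56 at CF, then -0.27 at CD and 0.15 at VC (SE 0.27), and the DEG rule called the gene at no stage in this fit. The VC difference was -0.18 without DVC replicate 2, -0.01 without SVC replicate 3, 0.30 without SVC replicate 1, and 0.44 without DVC replicate 3. At CD it was between -0.46 and -0.05 as single libraries were left out, and at SS it was 0.02 without DSS replicate 3 and 0.32 without DSS replicate 2.

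Over the 3 genes and 4 stages, heterografts were lower in every library in 5 of 12 cases, higher in every library in 1, and overlapped homografts in 6. The 5 lower cases were Pbr000691.1 at SS and CD, Pbr030045.1 at CF and CD, and Pbr013214.1 at CF, and the higher case was Pbr030045.1 at SS. The graft types overlapped for all 3 genes at VC, for Pbr000691.1 at CF, and for Pbr013214.1 at SS and CD. Over all tested genes the graft types did not overlap in 30.7% at SS and 22.2% at CF, and in 9.83% at CD and 11.9% at VC. The DEG rule called 0.528% of all genes at CD and 0.673% at VC. Since this contrast was taken as the one that chose the genes, nothing is read from the counts beside these shares.

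Pbr030045.1 and Pbr013214.1 had similar profiles, and Pbr000691.1 had another. Over the 24 libraries, Pearson's r of log2(FPKM + 1) was 0.833 between Pbr030045.1 and Pbr013214.1, 0.04 between Pbr000691.1 and Pbr030045.1, and 0.07 between Pbr000691.1 and Pbr013214.1. The points share conditions, libraries, and depth, and no p is given. Pbr013214.1 passed the threshold only through CD and VC libraries, the stages where Pbr030045.1 was also higher, so the choice itself favours this likeness. Once the condition means were taken out, r was 0.21 between Pbr030045.1 and Pbr013214.1, -0.32 between Pbr000691.1 and Pbr030045.1, and 0.105 between Pbr000691.1 and Pbr013214.1. Pbr013214.1 took 9.13% of the summed reads of these genes, 192 of 2102 (95% exact interval 7.94 to 10.4). By condition its share lay between 3.57% in SSS, from 28 reads, and 10.9% in SCF, from 192 reads, and the intervals of all 8 conditions overlapped. How reads that align to several places were counted is not given, and whether these genes share reads was not tested.

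**Figure D3:**
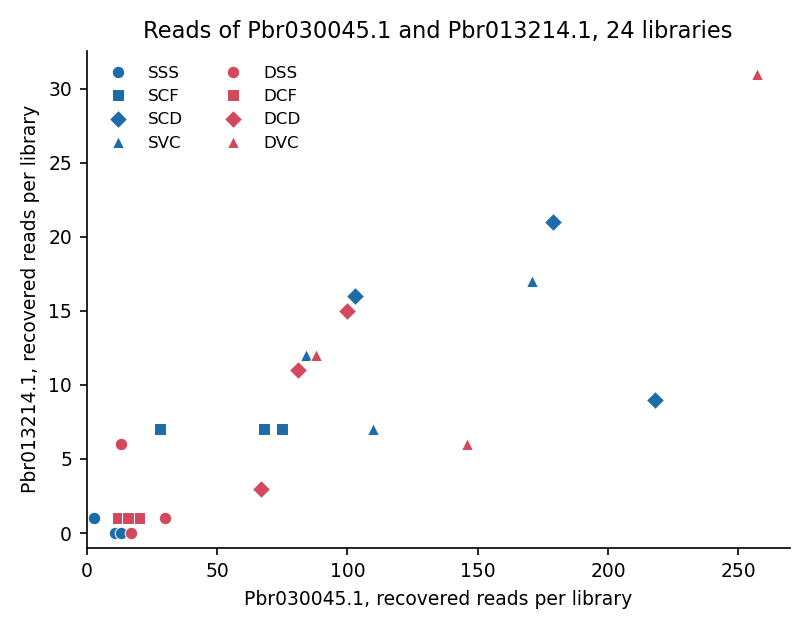
Reads of Pbr013214.1 (y) against reads of Pbr030045.1 (x) in each of the 24 libraries, with blue symbols for homografts, red for heterografts, and a shape for each stage. The SS libraries and the red CF squares lie near the origin, and the point at the top right, with 257 and 31 reads, is DVC replicate 2.

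Pbr000691.1 gave most of the summed FPKM of the 5 labelled POD genes in every condition, from 98.1% ± 0.758 in DCF and 97.8% ± 0.594 in SSS to 77.0% ± 8.28 in DVC and 74.2% ± 12.3 in SVC (SD, n = 3). In homografts, Pbr030045.1 gave 1.02% ± 0.574 at SS, then 4.65% ± 1.51, 11.8% ± 4.26, and 23.3% ± 11.6 at the later stages (SD, n = 3). In heterografts it gave 10.2% ± 4.92 at SS and 1.44% ± 0.338 at CF, followed by 10.3% ± 2.55 and 20.5% ± 7.88 (SD, n = 3). The high share in DSS stood beside a low level of Pbr000691.1 and 60 reads of Pbr030045.1. From SCD to SVC the share was higher although the mean of Pbr030045.1 went from 12.5 to 10.1 FPKM. Over that step Pbr000691.1 went from 94.9 to 34.7 FPKM. From DCD to DVC the mean of Pbr030045.1 went from 7.11 to 12.9 FPKM and that of Pbr000691.1 from 62.8 to 48.3 FPKM. Pbr013214.1 gave between 0.0397% in SSS and 2.20% in SVC. The VC shares spread widely between libraries, from 12.04% to 35.2% for Pbr030045.1 in SVC, and reached 27.6% in DVC.

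**Figure D4:**
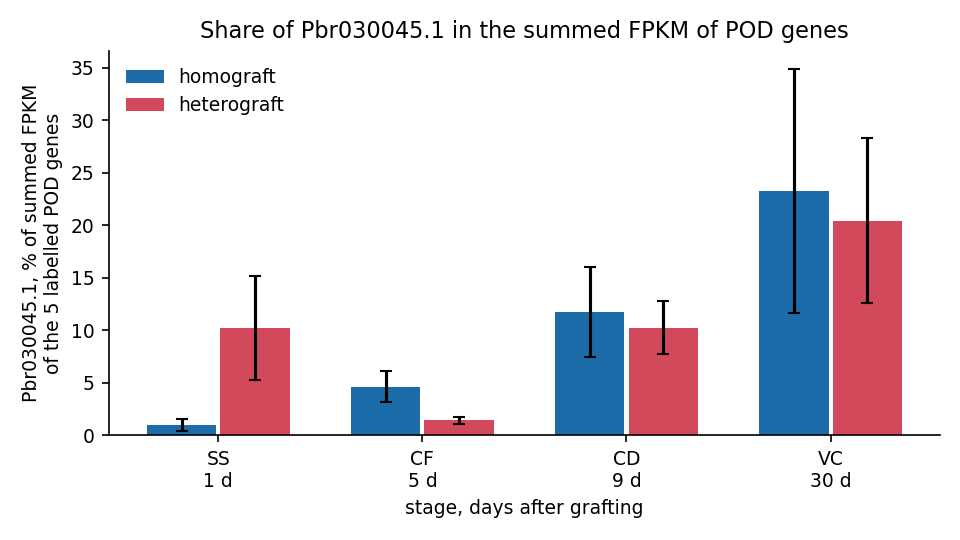
Share of Pbr030045.1 in the summed FPKM of the 5 labelled POD genes in percent (y) against stage and days after grafting (x), in homografts (blue) and heterografts (red). Bars are means and lines the SD of 3 libraries. The mean share is 1.02% in SSS, 10.2% in DSS, 1.44% in DCF, and above 20% in both graft types at VC. The share also moves with Pbr000691.1, whose mean was 94.9 FPKM in SCD and 34.7 FPKM in SVC.

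Among all tested genes, the profile most like that of Pbr000691.1 was that of Pbr006261.1, with Pearson's r of 0.88 over the 24 libraries on the log2(FPKM + 1) scale. Pbr006261.1 was very abundant, at 15232 to 33993 FPKM, and its lowest mean was also in DSS, 17590 ± 3087 FPKM (SD, n = 3). The gene most like Pbr030045.1 was Pbr011431.1, with r of 0.98, and 45 genes had r above 0.9 with Pbr030045.1. Pbr011431.1 had 0.988 ± 0.848 FPKM in SSS and 1.35 ± 0.814 FPKM in DCF, and 16.7 ± 5.90 FPKM in DVC (SD, n = 3). For Pbr013214.1 it was Pbr028365.1, with r of 0.90, at 0.165 to 10.4 FPKM. Among the other 26894 genes, Pbr013214.1 ranked 128 by likeness to Pbr030045.1, and Pbr030045.1 ranked 20 by likeness to Pbr013214.1. The choice of Pbr013214.1 through CD and VC libraries favours its likeness to genes that are high at these stages. These are descriptions over libraries of shared conditions, with no p, and the identifiers most like each gene carry no name here.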

How the data were processed

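RNA-seq was performed by the authors on graft unions, with 3 libraries for each of 8 conditions. Reads were trimmed by Cutadapt 1.15, mapped by HISAT2 2.0.5 to version 1.0 of the Pyrus bretschneideri scaffolds, and counted by HTSeq 0.9.1, and the authors deposited FPKM values. Strand and the treatment of reads with several alignments are not given in the sources used here. Groups were taken from the sample titles. The members and lists were chosen with earlier results of these data known.

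Whole reads were recovered from the FPKM values, and intervals from them cover counting error only. The 26895 genes that reached 1 FPKM in 3 or more libraries were fitted on log2(FPKM + 1) with limma 3.58.1 in R 4.3.3, with a mean-variance trend and 1 mean per condition over all 24 libraries (16 residual degrees of freedom, 19.6 with the prior). This scale understates changes of low genes. Stage steps averaged over graft types were called at a Benjamini-Hochberg adjusted p below 0.05, two-sided. The fit was run on simulated counts with the same dispersion for every gene. That run does not cover genes that vary more between libraries, so nothing is concluded from it for the members. Exact permutation tests used Python 3.11.15 and scipy 1.17.1. The named genes were the 3 members, the other 2 labelled POD genes, and for each member the gene with the highest Pearson r. Alternatives were a pseudocount of 0.1, no filter on low values or one at 5 FPKM, no trend, upper-quartile scaling, voom on the recovered reads, the replicate number as a block, only the libraries compared, and each library left out in turn. No genome or annotation was used, so that no sequences, other lignin genes, or marker check of the tissue are given.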

Additional observations from a re-analysis of the deposited data

Results flagged for a closer look

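The course of Pbr000691.1 from SS to VC had opposite signs in the 2 graft types. Its log2(FPKM + 1) change was -1.11 in homografts, where every SVC library was below every SSS library, and 1.66 in heterografts, where every DVC library was above every DSS library. The share of all genes whose libraries part in this way between stages was not computed, so nothing is read from this separation. The calls from SS to VC, 37% of genes higher and 18.3% lower, are of the contrast averaged over both graft types. They do not give the share of genes with opposite courses. Because the comparison of graft types was taken as the one that chose the gene, which the study does not state, the difference between these changes was not tested.

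The heterograft minus homograft difference of Pbr030045.1 also had opposite signs between stages. It was 0.62 at SS, with every heterograft library higher, -1.26 at CF, and -0.70 at CD, with every heterograft library lower at both. Over all tested genes the libraries of the graft types did not overlap in 30.7% at SS, 22.2% at CF, and 9.83% at CD. The SS difference rests on 27 reads in SSS and 60 in DSS. The difference between stages was not tested, for the same reason.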

How the results depend on the processing

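Of 822 values of the 3 genes under all alternatives, 801 kept their direction and side of the threshold or moved within the spread of replicates. No called value changed sign. The 801 is no measure of robustness, because many values could not move. With 1 mean per condition, dropping a library changes no difference between other conditions. The filters, no trend, the block, and only the libraries compared also left every difference as it was. There only F and p-values can change, and untested values have no p-value. Apart from the fits that each dropped 1 library, there were 198 values, and 183 of them stayed within these limits. With a pseudocount of 0.1, heterograft minus homograft was 1.16 at SS and -1.71 at CF for Pbr030045.1 and 0.86 and -1.93 for Pbr013214.1, whose stage differences were 1.09 from SS to CF, 1.47 from CF to CD, and 2.72 from SS to VC. Voom on the recovered reads gave 1.22 and -1.77 for Pbr030045.1 and 1.23 and -2.37 for Pbr013214.1, and 1.57, 1.73, and 3.44 for the stage differences of the latter. These scales compress low values less. In voom, the SS to CF step of Pbr030045.1 was 1.18 and was not called (adjusted p = 0.118). Across all its alternatives the adjusted p of this step in limma was 0.00571 to 0.118. Among all genes, the DEG rule called 2161, 878, 418, and 504 genes at SS, CF, CD, and VC with the lower pseudocount, 1991, 825, 404, and 449 with voom, and 86 at CD and 113 at VC with the filter at 5 FPKM, against 1204, 407, 142, and 181. From CF to CD, 58 genes were called higher with the lower pseudocount, 130 lower with upper-quartile scaling, and 39 higher and 16 lower with only the libraries compared, against 89 and 79. The cause of these moves was not tested. With each library left out in turn, the SS to CF step of Pbr030045.1 was 0.63 to 0.90, the SS to VC change of Pbr000691.1 was 0.14 to 0.37, and calls were 23 to 901 higher and 11 to 291 lower from CF to CD, 139 to 272 by the DEG rule at CD, and 178 to 304 at VC. The highest counts came without DCD replicate 1, and at VC without SVC replicate 2. From CF to CD, a count moved by over 1.5 times also without SCF replicate 1 or 3, any SCD library, DCF replicate 1 or 2, or DCD replicate 2 or 3. Pbr013214.1 has no value with the filter at 5 FPKM.

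Replicate numbers do not pair the libraries. Deviations of same-numbered libraries from their condition means correlated at a median of -0.01 (-0.23 to 0.21 over 84 pairs), and 10 of 24 libraries were closest to their own number. Every replicate number occurs in each condition, so a replicate block cannot move a difference, only its p-value. With the block, the SS to CF difference of Pbr030045.1, 0.74, had an adjusted p of 0.0233 in limma, and no call of the members changed.

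The genes most like each member depended on the measure. Over condition means or by rank correlation they stood at places 2 to 8 rather than first. Depth limits Pbr013214.1, whose SSS and DCF values rest on 1 and 3 reads.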
